A study of Mus musculus with 15 samples.

Results

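The family of miR-148 and miR-152 was followed as 4 mature miRNAs, mmu-miR-148a-3p, mmu-miR-148a-5p, mmu-miR-148b-3p and mmu-miR-152-3p (written without the species prefix from here on), in small RNA libraries of mouse pancreas. The libraries were made from acini, groups of exocrine cells whose product is digestive enzyme. The members were chosen by name, with the large share of miR-148a-3p in most libraries already known. They are 4 of the 1915 mature miRNAs in the deposited table. All 15 libraries came from C57BL/6 mice of 7 to 8 weeks and formed 5 groups of 3. In the treated groups caerulein was given at 100 nM or at 100 pM, or TLC-S at 250 uM or at 62.5 uM; the control received no drug. Caerulein is a peptide that activates the cholecystokinin receptor; the series design calls 100 nM pathological and 100 pM physiological. TLC-S, taurolithocholic acid 3-sulfate, is a bile acid that injures acinar cells. The sources used here do not give the treatment time. Per the labels' protocols each library was made from RNA pooled over 3 acinar preparations. Which preparations went into which library is not given, so p-values measure only how far these libraries spread, and part of that may be technical.

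A miRNA hairpin is cut by Drosha and Dicer into a duplex, and either arm of the duplex can be loaded into an Argonaute protein. The loaded arm pairs with messenger RNAs mainly through its seed, the bases that follow the first one, so miRNAs with the same seed are grouped as a family. miR-148a is known as one of the most abundant miRNAs of the exocrine pancreas. In human cells miR-148a, miR-148b and miR-152 are known to repress DNMT1, the maintenance DNA methyltransferase.

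The mature sequences are shown because the 3p arms share their seed and differ at few bases, which decides how reads can be told apart. They were taken from RefSeq (GRCm38.p6), which held all 6 arms of the 3 hairpins, and the capitals mark the seed, bases 2 to 8 from the 5′ end.
miR-148a-3p: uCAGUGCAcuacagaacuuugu
miR-148b-3p: uCAGUGCAucacagaacuuugu
miR-152-3p: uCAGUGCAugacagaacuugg
miR-148a-5p: aAAGUUCUgagacacuccgacu
miR-148b-5p: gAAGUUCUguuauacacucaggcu
miR-152-5p: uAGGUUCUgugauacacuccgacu

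The seed CAGUGCA was at bases 2 to 8 of 3 of the 1679 mature miRNAs in the RefSeq table, and these were the 3p arms of miR-148a, miR-148b and miR-152. Counted from 1 at the 5′ end of miR-148a-3p, miR-148b-3p differed by C9U and U10C and was the same at the other 20 of 22 positions. miR-152-3p, which is 1 base shorter, differed from miR-148a-3p by C9U, U10G and U20G over the 21 shared positions. The 5p arms split: miR-148a-5p and miR-148b-5p had the same seed, AAGUUCU, and miR-152-5p had another one.

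The hairpins are shown with both arms in capitals, since the comparison of arms below depends on which arm of each hairpin was counted. All positions are in GRCm38.
Mir148a: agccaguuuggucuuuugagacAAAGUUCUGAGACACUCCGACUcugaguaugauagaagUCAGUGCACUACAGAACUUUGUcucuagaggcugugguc
Mir148b: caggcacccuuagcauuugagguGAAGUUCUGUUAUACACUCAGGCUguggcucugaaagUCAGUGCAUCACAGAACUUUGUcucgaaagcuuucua
Mir152: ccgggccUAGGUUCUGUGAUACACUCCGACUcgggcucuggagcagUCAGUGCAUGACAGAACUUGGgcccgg

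Mir148a lies at chr6:51269812-51269910 on the minus strand, outside any other gene of GENCODE M21, and its nearest protein-coding gene, Nfe2l3, is 162760 bases away. Mir148b lies at chr15:103285125-103285221 on the plus strand in an intron of Copz1, and Mir152 at chr11:96850393-96850465 on the plus strand in an intron of Copz2. Copz1 and Copz2 encode the zeta subunits of the COPI vesicle coat, so miR-148b and miR-152 sit in paralogous host genes and miR-148a lies between genes. The deposited tables hold miRNAs only, so the host genes were not analysed here.

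Reads of the 3 seed-sharing arms had been divided among them in part. In the table of estimated counts per precursor, at least 1 of the 3p arms had a fractional value in 13 of 15 libraries, yet the sum of the 3 arms was whole in 15 of 15 within 0.02. All 45 values were multiples of a sixth of a read. The 3 5p arms were whole in every library. How reads with an error at the differing bases were assigned is not stated. The levels and ratios of the 3 arms are therefore uncertain by an amount that counts do not show.

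Libraries held from 535473 counts (caerulein 100 nM replicate 2) to 5087728 (caerulein 100 nM replicate 3). All 4 members and both other arms, miR-148b-5p and miR-152-5p, were among the 351 miRNAs that passed the low-count filter. Levels below are CPM, counts scaled to a common total, scaled with TMM, an edgeR method that sets aside the most divergent miRNAs when it matches libraries.

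miR-148a-3p, whose large share was known when the family was chosen, was the most abundant miRNA in 15 of 15 libraries. Its share of all mature miRNA counts was 24.8%, 20.2% and 22.2% with caerulein 100 nM and 23.8%, 35.4% and 36.4% with caerulein 100 pM. With TLC-S the share was 27.8%, 21.4% and 42.7% at 250 uM and 27.2%, 27.8% and 21.8% at 62.5 uM, and in control it was 17.6%, 18.7% and 50.5%. The control group thus held both the lowest shares of the series and the highest one, and the shares of each treated group lay inside the control range. The 95% Wilson interval of each share reached at most 0.108 percentage points to either side, for counting error only, so the spread between libraries was far larger than counting error. In these bulk libraries fewer cells of a type and less RNA per cell cannot be told apart.

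**Figure D1:**
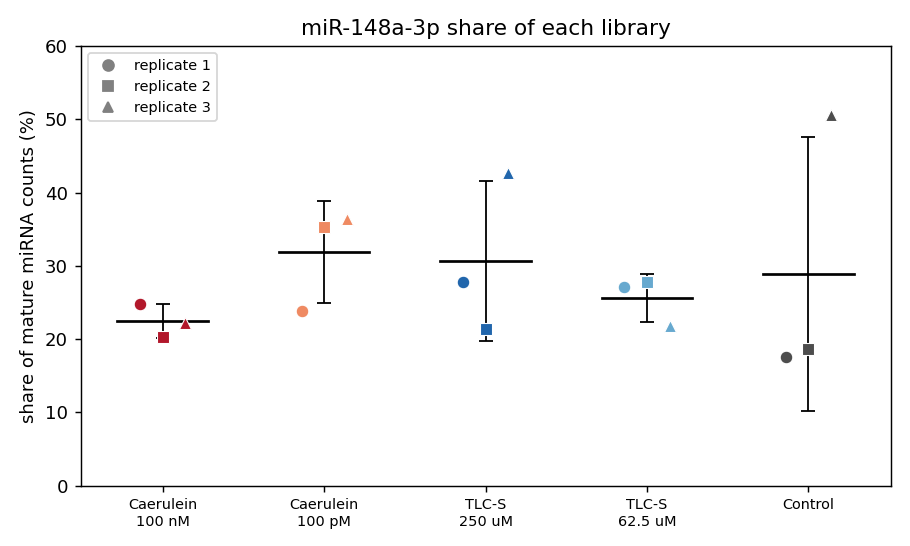
Share of all mature miRNA counts held by miR-148a-3p (percent, y axis) in each library of the 5 groups (x axis); symbols mark replicates, horizontal lines group means and error bars 1 SD (n = 3). Control replicate 3, at 50.5%, stands above all other libraries, and the other control libraries, at 17.6% and 18.7%, below them.

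On the TMM scale the gap widened. miR-148a-3p was at 237704, 189608 and 212763 CPM with caerulein 100 nM, and at 238120, 460283 and 457760 CPM with caerulein 100 pM. It was at 257219, 187790 and 474015 CPM with TLC-S 250 uM, at 260935, 255148 and 190522 CPM with TLC-S 62.5 uM, and at 157628, 157905 and 687528 CPM in control. Across the series 11 libraries lay between 157628 and 260935 CPM and 4 between 457760 and 687528 CPM, with no library between these ranges. The 4 were caerulein 100 pM replicates 2 and 3, TLC-S 250 uM replicate 3 and control replicate 3, so they crossed the groups.

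miR-152-3p, made from the Copz2 intron, was the second most abundant member and held 1.26% ± 0.183 of counts (SD, n = 15), rank 16 of all miRNAs by mean share. It was at 11179 ± 1155 CPM with caerulein 100 nM, 13963 ± 1932 with caerulein 100 pM, 11762 ± 2322 with TLC-S 250 uM, 14020 ± 2611 with TLC-S 62.5 uM and 12521 ± 2346 in control (SD, n = 3 each). Its highest library, TLC-S 62.5 uM replicate 1 at 16789 CPM, was 1.78 times its lowest, TLC-S 250 uM replicate 2 at 9445 CPM. The same ratio was 4.36 for miR-148a-3p, and 3.01 without control replicate 3.

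miR-148a-5p, the other arm of the Mir148a hairpin, was rank 46, with 0.174% ± 0.0468 of counts (SD, n = 15). It was at 2069, 2108 and 1331 CPM with caerulein 100 nM, 1934, 2374 and 1495 with caerulein 100 pM, 1379, 1835 and 1519 with TLC-S 250 uM, 1430, 1387 and 1201 with TLC-S 62.5 uM and 2635, 1372 and 1896 in control. The TLC-S 62.5 uM libraries overlapped the control only through control replicate 2. miR-148b-3p, from the Copz1 intron, was rank 71 with 0.0680% ± 0.0171 of counts (SD, n = 15), and was at 541 ± 110 CPM with caerulein 100 nM, 853 ± 231 with caerulein 100 pM, 703 ± 269 with TLC-S 250 uM, 650.0 ± 193 with TLC-S 62.5 uM and 788 ± 548 in control (SD, n = 3 each). Its highest library was again control replicate 3, at 1416 CPM, and its lowest was control replicate 2, at 407 CPM. The 2 arms outside the list were scarcer: miR-152-5p ran from 136 to 260 CPM over the 15 libraries and miR-148b-5p from 5.51 to 21.8 CPM, from 5 to 87 counts a library.

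**Figure D2:**
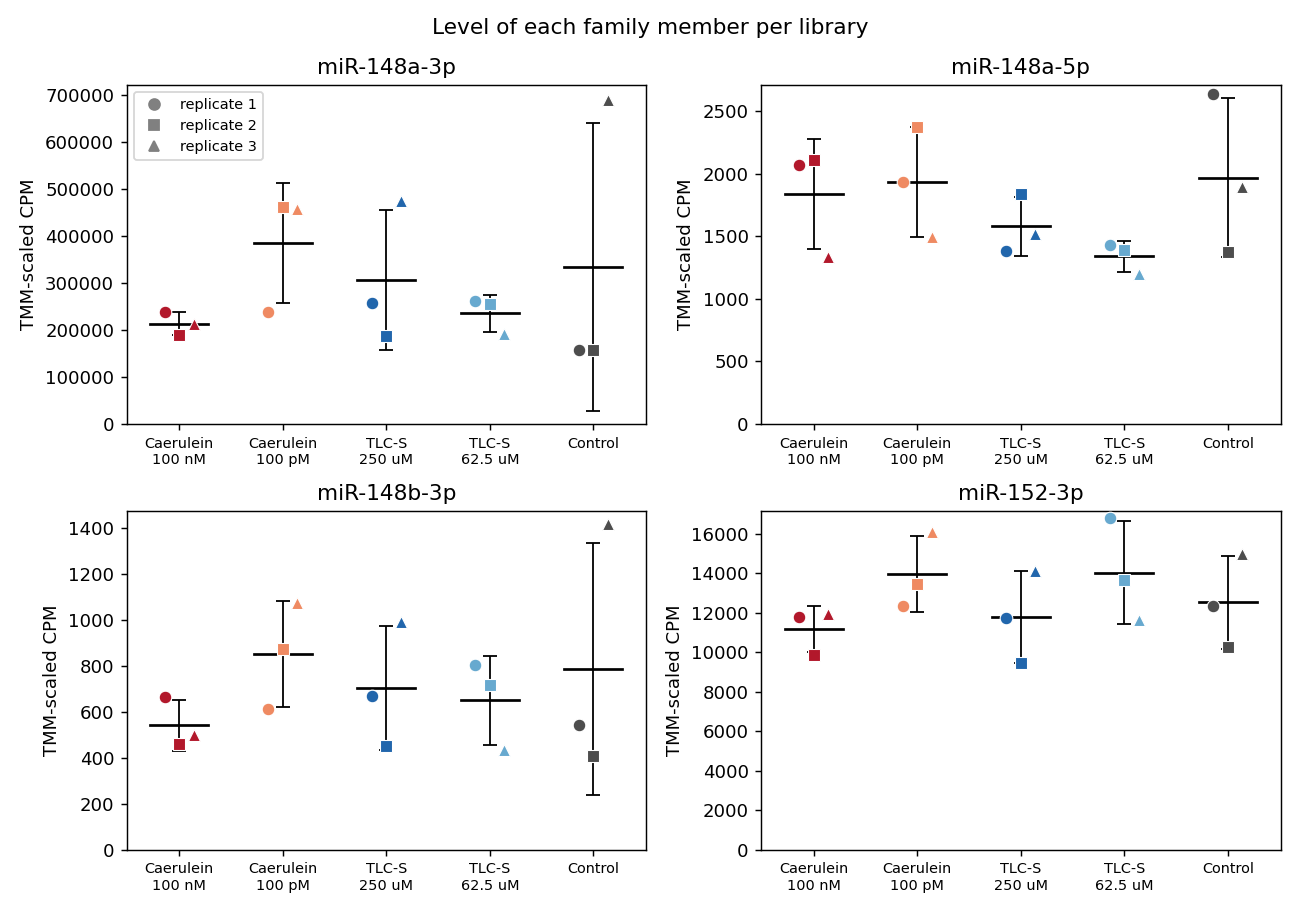
TMM-scaled CPM (y axis) of miR-148a-3p, miR-148a-5p, miR-148b-3p and miR-152-3p in each library of the 5 groups (x axis); symbols mark replicates, lines group means and bars 1 SD (n = 3). Control replicate 3 is the highest library for miR-148a-3p (687528 CPM) and miR-148b-3p (1416 CPM), and not for miR-148a-5p or miR-152-3p.

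Within the pool of counts that carry the seed CAGUGCA, miR-148a-3p supplied 95.1% ± 1.42, miR-152-3p 4.69% ± 1.39 and miR-148b-3p 0.238% ± 0.0351 (SD, n = 15). The miR-148a-3p part ran from 92.5% in control replicate 1 to 97.7% in control replicate 3. The order of the 3 arms was the same in all 15 libraries, since miR-152-3p was at least 10.6 times miR-148b-3p and miR-148a-3p at least 12.8 times miR-152-3p. Both extremes came from control libraries.

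The members differed in how reproducible they were. The SD of log2 CPM within groups was 0.69 for miR-148a-3p, above 99.3% of the 145 miRNAs with a mean of at least 100 CPM, whose median was 0.33. It was 0.58 for miR-148b-3p (above 95.9%), 0.33 for miR-148a-5p (above 47.6%) and 0.24 for miR-152-3p (above 22.1%). Without control replicate 3 these SDs were 0.43, 0.43, 0.35 and 0.23, in the same order of members. The median was then 0.33 for the 145 miRNAs and 0.43 for all miRNAs tested. The percentages above hold with control replicate 3 and were not computed without it.

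Each comparison of groups was made with edgeR's quasi-likelihood test over all 351 miRNAs, with a call at a Benjamini-Hochberg adjusted p under 0.05. With caerulein 100 nM, the 4 members were negative against control and 0 of 4 were called, where 0% of all tested miRNAs were called and 12 had an unadjusted p under 0.05 (DESeq2 gave 1 call). miR-148a-3p differed by -0.65 (log2, SE 0.40, 95% interval -1.48 to 0.18, adjusted p = 0.984 in edgeR) and miR-148b-3p by -0.54 (SE 0.37). miR-152-3p differed by -0.16 (interval -0.63 to 0.30) and miR-148a-5p by -0.10 (interval -0.64 to 0.44). The median over the members was -0.35, against 0.03 over all miRNAs tested. The negative value of miR-148a-3p rested on control replicate 3. Each of the 3 treated libraries lay above control replicates 1 and 2 and below replicate 3, and without that library the difference was 0.45 (SE 0.30, adjusted p = 0.997 in edgeR).

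With caerulein 100 pM, 3 members were positive against control (2 with library totals, where miR-152-3p was at -0.06, and 4 with upper quartile scaling, where miR-148a-5p was at 0.04) and 0 of 4 were called, where 0% of all miRNAs were called and 24 had an unadjusted p under 0.05 (0 calls in DESeq2). miR-148a-3p differed by 0.20 (SE 0.40, interval -0.63 to 1.03, adjusted p = 0.942 in edgeR), miR-152-3p by 0.16 (SE 0.23), miR-148b-3p by 0.11 (SE 0.36) and miR-148a-5p by -0.02 (SE 0.26). The median was 0.14, against 0.01 over all miRNAs tested. Without control replicate 3, miR-148a-3p stood at 1.31 (SE 0.31) and missed the threshold (adjusted p = 0.0759 in edgeR). That was the smallest adjusted p of any member in a comparison of groups under the alternatives tried.

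With TLC-S 250 uM, the 4 members were negative against control (2 with library totals, where miR-148a-3p was at 0.08 and miR-148b-3p at 0.0012) and 0 of 4 were called, where 0% of all miRNAs were called and 4 had an unadjusted p under 0.05 (0 calls in DESeq2). The differences were -0.32 for miR-148a-5p (SE 0.26, interval -0.86 to 0.22), -0.16 for miR-148b-3p (SE 0.36), -0.13 for miR-148a-3p (SE 0.40, interval -0.96 to 0.70) and -0.09 for miR-152-3p (SE 0.23), with a median of -0.14 against -0.03 over all miRNAs tested. The lowest adjusted p of a member was 0.999 in edgeR. Without control replicate 3, miR-148a-3p stood at 0.97 (SE 0.30) and miR-148b-3p at 0.58 (SE 0.34), neither called.

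With TLC-S 62.5 uM, 3 members were negative against control and 0 of 4 were called, where 0.57% of all miRNAs were called. Of the 351 miRNAs tested, 26 had an unadjusted p under 0.05 in edgeR. The only member with an unadjusted p under 0.05 was miR-148a-5p, at 1339 ± 122 CPM with TLC-S 62.5 uM and 1968 ± 635 in control (SD, n = 3 each), a difference of -0.55 (SE 0.26, interval -1.09 to -0.02, unadjusted p = 0.0437, adjusted p = 0.648 in edgeR). It kept its sign in all 25 alternatives, from -0.76 to -0.26, but some of these left out only a library of another group. Between the single libraries of replicate numbers 1, 2 and 3, miR-148a-5p differed by -0.88, 0.02 and -0.66. Its partner arm miR-148a-3p differed by -0.51 (SE 0.40) and by 0.60 (SE 0.30) without control replicate 3. miR-148b-3p differed by -0.28 (SE 0.36) and miR-152-3p by 0.16 (SE 0.23). miR-152-5p, from the Mir152 hairpin, differed by -0.51 (SE 0.27), close to miR-148a-5p, while miR-152-3p did not share that sign.

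Between the caerulein doses, all 4 members were negative at 100 nM against 100 pM (3 with library totals, where miR-148a-5p was at 0.23) and 0 of 4 were called, where 0% of all miRNAs were called and 6 had an unadjusted p under 0.05 (0 calls in DESeq2). miR-148a-3p was at 213358 ± 24054 CPM with caerulein 100 nM and 385388 ± 127544 with caerulein 100 pM (SD, n = 3 each), a difference of -0.85 (SE 0.41, interval -1.69 to -0.02, unadjusted p = 0.0457, adjusted p = 0.986 in edgeR). The 3 libraries at 100 nM lay below the 3 at 100 pM, but replicate 1 of each dose nearly met, at 237704 CPM with 100 nM and 238120 CPM with 100 pM. miR-152-3p also did not overlap between the doses (difference -0.32, SE 0.23), so 2 of 4 members were without overlap, where 5.7% of the 351 miRNAs were. As shares of library totals both members overlapped between the doses: miR-148a-3p held 20.2% to 24.8% with caerulein 100 nM and 23.8% to 36.4% with caerulein 100 pM, and miR-152-3p 1.05% to 1.24% with caerulein 100 nM and 1.03% to 1.28% with caerulein 100 pM. miR-148b-3p differed by -0.65 (SE 0.37) and miR-148a-5p by -0.08 (SE 0.26). With library totals in place of TMM, which shifted the median of all miRNAs by 0.29 in this comparison, the difference of miR-148a-3p was -0.51 and that of miR-152-3p was -0.0082.

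Between the TLC-S doses 3 members were positive at 250 uM against 62.5 uM and 0 of 4 were called, where 1.14% of all miRNAs were called. miR-148a-3p differed by 0.38 (SE 0.40, interval -0.45 to 1.21), miR-148a-5p by 0.24 (SE 0.26), miR-148b-3p by 0.11 (SE 0.36) and miR-152-3p by -0.25 (SE 0.23). Over the 5 groups together the F test called 0 of 4 members, where 0.855% of all miRNAs were called; the unadjusted p was 0.226 for miR-148a-3p, 0.213 for miR-148a-5p, 0.457 for miR-148b-3p and 0.519 for miR-152-3p, and the lowest adjusted p was 0.904 in edgeR.

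**Figure D3:**
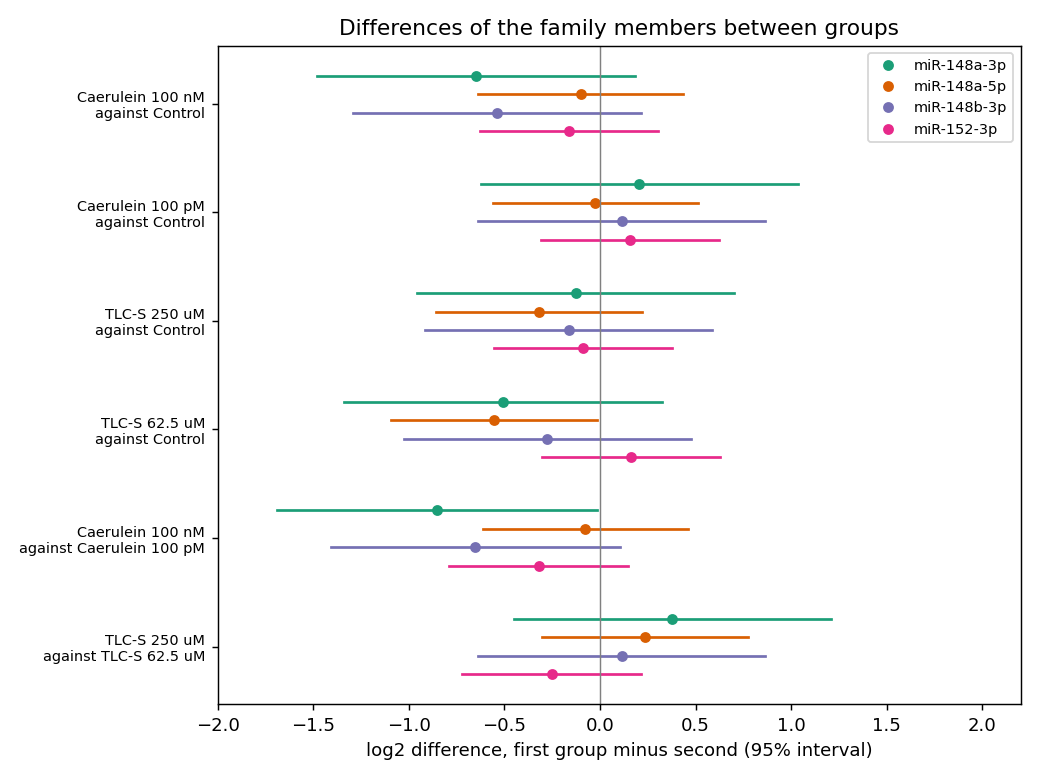
log2 differences (x axis, first group minus second) with 95% intervals of the 4 members in 6 comparisons of groups (y axis), from edgeR. The intervals of miR-152-3p are the narrowest and all span 0; those of miR-148a-5p with TLC-S 62.5 uM (-1.09 to -0.02) and of miR-148a-3p between the caerulein doses (-1.69 to -0.02) end just below 0, and 0 of the 24 differences was called.

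The sample codes in the titles run in 3 series of 5, 1 library of each group in a series, which are the replicate numbers used here; what a series stands for is not given. Within replicate number 1, miR-148a-3p was higher in all 4 treated libraries than in the control, by 0.59 to 0.73 (log2). Within number 2 it was again higher in 4 of 4, by 0.25 to 1.54. Within number 3 it was lower in 4 of 4, by -1.85 to -0.54. miR-148b-3p had the same split, at 0.18 to 0.57, 0.15 to 1.10 and -1.71 to -0.40. A direction for these arms against control was therefore not shared by the 3 series. The 4 differences within a number share 1 control library, so they are not 4 separate results, for any of the arms. For miR-148a-3p the control libraries of numbers 1, 2 and 3 ranked 15, 14 and 1 of the 15 libraries from the highest. miR-148a-5p was lower in 4 of 4 treated libraries in numbers 1 and 3 and higher in 4 of 4 in number 2, by 0.02 to 0.79. miR-152-3p had 1, 2 and 1 of 4 treated libraries above the control.

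Ratios of counts within a library do not depend on scaling between libraries, and 4 of them were compared with control. The 3p arm of Mir148a outnumbered the 5p arm in every library, by 59.8-fold in control replicate 1 and by 363-fold in control replicate 3. The ratio was 115, 89.9 and 160 with caerulein 100 nM, 123, 194 and 306 with caerulein 100 pM, 186, 102 and 312 with TLC-S 250 uM, 182, 184 and 159 with TLC-S 62.5 uM, and 59.8, 115 and 363 in control. The mean log2 ratio differed from control by -0.20, 0.52, 0.42 and 0.36 for these treated groups in turn, with exact two-sided permutation p-values of 0.8, 0.6, 0.8 and 0.7. The TLC-S 62.5 uM libraries were the most alike (SD 0.12 in log2, n = 3) and the control libraries the least (SD 1.32, n = 3). In 4 of 5 groups the library with the highest arm ratio was replicate 3, and the same held for miR-152, whose 3p to 5p ratio ran from 44.5 to 124. For miR-148b, with a ratio from 30.2 to 113, replicate 3 was highest in 1 of 5 groups and replicate 1 in 3.

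The ratios between members with the same seed behaved differently from each other. miR-148b-3p to miR-148a-3p stayed within a narrow band, with 1 count of miR-148b-3p for 291 to 528 counts of miR-148a-3p, and the log2 ratio had an SD of 0.22 over 15 libraries. miR-152-3p to miR-148a-3p had an SD of 0.51, with 1 count for 12.8 to 46.0 counts of miR-148a-3p. The SD of the arm ratio of Mir148a was 0.71. In all 5 groups replicate 1 had the highest ratio of miR-148b-3p to miR-148a-3p. Over the 16 comparisons of treated groups with control, log2 ratios differed by -0.35 to 0.52, exact permutation p-values were 0.4 or more, and every adjusted p was 1.0; with 3 libraries against 3 the smallest possible p is 0.1.

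**Figure D4:**
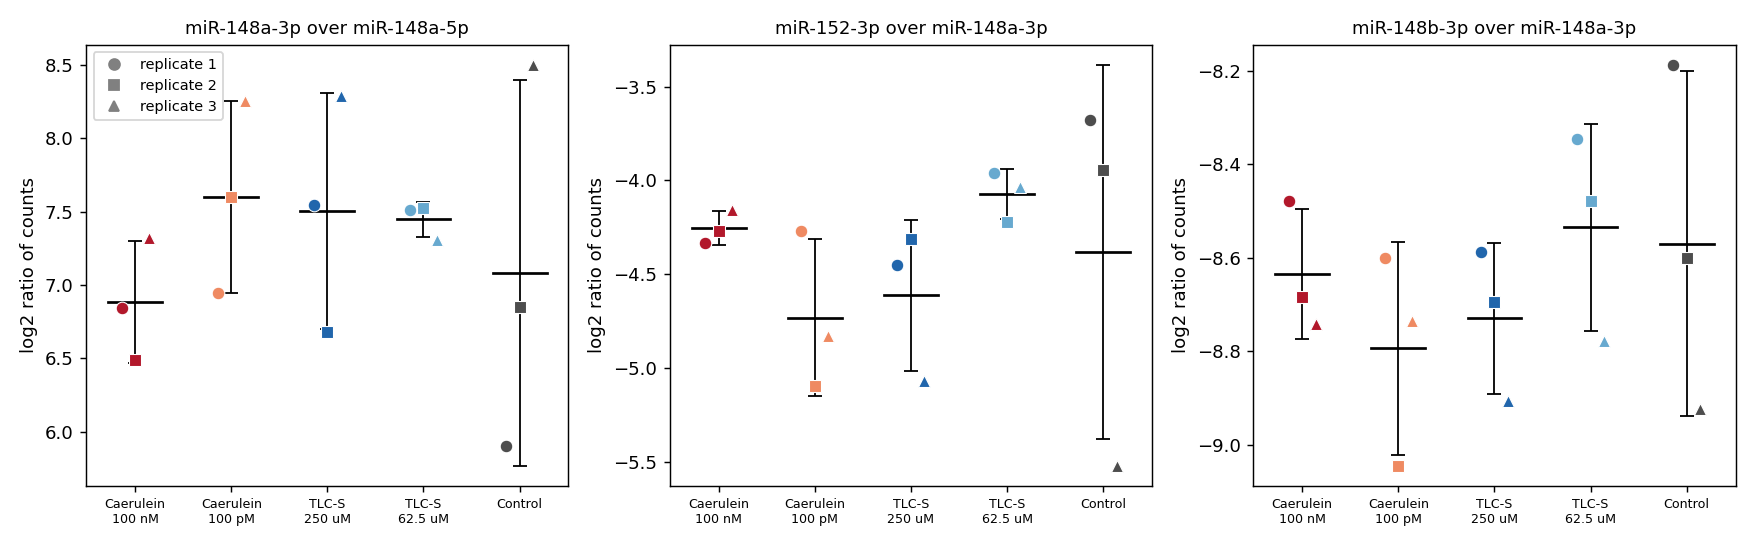
log2 ratios of counts (y axis) of miR-148a-3p over miR-148a-5p, miR-152-3p over miR-148a-3p and miR-148b-3p over miR-148a-3p in each library of the 5 groups (x axis; the y axes differ in range); symbols mark replicates, lines group means and bars 1 SD (n = 3). The control libraries span the widest range of the first ratio, 59.8 to 363 on the linear scale, and every group overlaps control in each ratio.

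Across libraries the arms of the same hairpin had low or negative correlations, and some arms of different hairpins had high ones. These correlations of log2(CPM + 1) are descriptions over libraries that share their scaling and, for the 3p arms, divided reads. miR-148b-3p was the miRNA most like miR-148a-3p of 144 compared (r = 0.95, rho = 0.92 over 15 libraries; r = 0.90 without the 2 libraries farthest from the median). Because miR-148a-3p fell into a lower and a higher range, r was also taken within the 11 lower libraries, where it was 0.84 (rho = 0.82). These 11 were set by miR-148a-3p itself, and its narrower range there can by itself weaken r. Values within the 11 libraries, here and below, are therefore not a test of likeness. miR-148a-3p and its own partner arm had r = -0.30 within those 11 libraries and r = 0.06 over all 15, which placed miR-148a-5p at rank 70 of 144. With library totals in place of TMM, r for this pair was -0.55 within the 11 libraries and -0.58 over all 15. Those totals include miR-148a-3p itself, and with totals that left it out r over all 15 was 0.0090. Over the 15 libraries r between the arms was 0.24 for miR-148b and -0.46 for miR-152.

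miR-152-3p was most like miR-148b-3p (r = 0.83, rho = 0.86 over 15 libraries), and its r with miR-148a-3p was 0.61 within the 11 lower libraries. These values depended on the scaling: with library totals, r over 15 libraries was 0.86 for miR-148a-3p with miR-148b-3p, 0.28 for miR-152-3p with miR-148b-3p and -0.11 for miR-152-3p with miR-148a-3p. With totals that left miR-148a-3p out, r for the same pairs was 0.94, 0.83 and 0.69. miR-148a-5p was most like miR-152-5p (r = 0.81, rho = 0.72; r = 0.77 without the 2 farthest libraries, and 0.86 over 15 libraries with library totals). After the group means were taken out, r was 0.94 for miR-148a-3p with miR-148b-3p, 0.90 for miR-152-3p with miR-148b-3p and 0.73 for miR-148a-5p with miR-152-5p, so these pairs also varied together inside groups.

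Beyond the family, the closest to miR-148a-3p were miR-151-3p (r = 0.78) and miR-192-5p (r = 0.74). Within the 11 lower libraries, with their narrower range, r was 0.05 for miR-151-3p and 0.43 for miR-192-5p. After miR-152-5p, miR-148a-5p was closest to miR-183-5p (r = 0.78), miR-98-5p (r = 0.77) and let-7d-3p (r = 0.75). miR-148b-3p was followed by miR-23b-3p (r = 0.76) and miR-26a-5p (r = 0.75) after its family, and miR-152-3p by miR-200c-3p (r = 0.73) and miR-192-5p (r = 0.71).

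**Figure D5:**
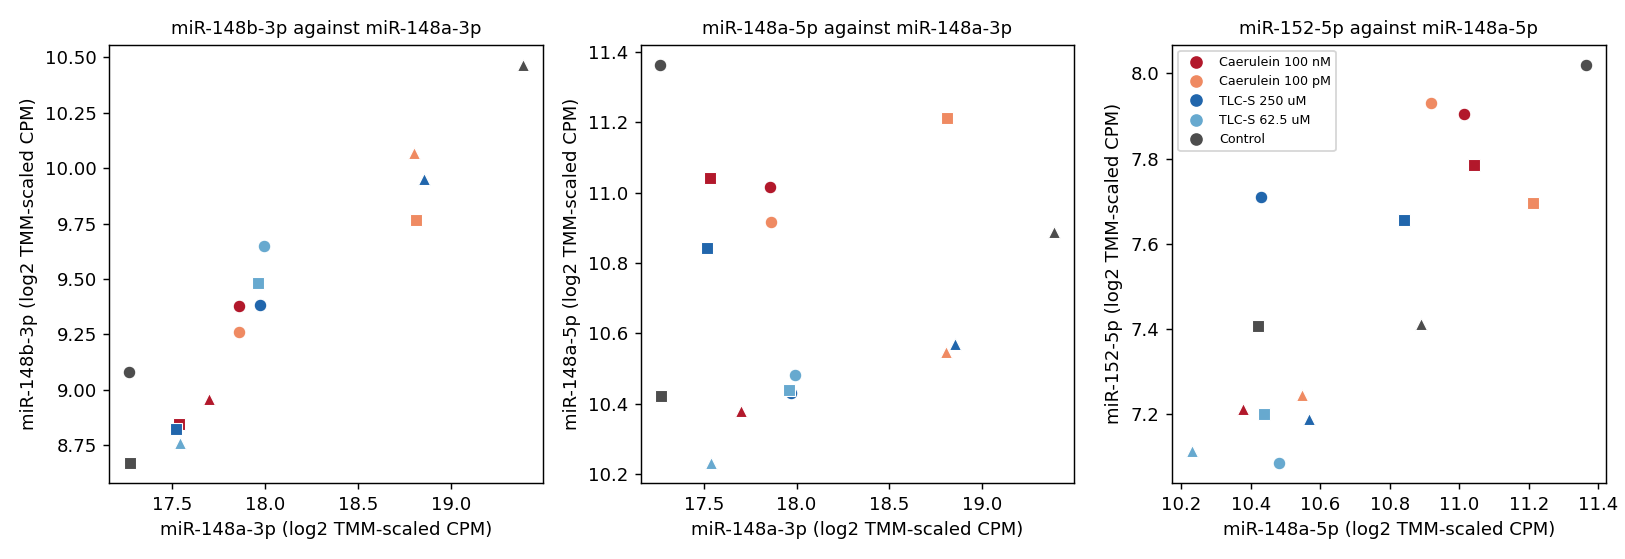
log2 TMM-scaled CPM of pairs of arms in 15 libraries: miR-148b-3p against miR-148a-3p, miR-148a-5p against miR-148a-3p, and miR-152-5p against miR-148a-5p (y against x); colours mark groups, and circles, squares and triangles replicates 1, 2 and 3. The left and right pairs rise together (r = 0.95 and 0.81) and the middle pair, the arms of 1 hairpin, does not (r = 0.06); 4 libraries stand apart at high miR-148a-3p.

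The 6 arms of miR-216a, miR-216b and miR-217, miRNAs known for their enrichment in exocrine pancreas, held 11.0% of counts on average, from 7.57% in control replicate 3 to 14.99% in control replicate 2, so the library richest in miR-148a-3p was the poorest in these by share. On the TMM scale the 6 arms summed to 103046 CPM in that library, inside the range of 76884 to 179348 CPM over the series. Over all 15 libraries their r with miR-148a-3p was 0.34 for miR-216a-3p, 0.34 for miR-216b-3p, 0.30 for miR-217-5p, 0.19 for miR-217-3p, 0.13 for miR-216a-5p and -0.21 for miR-216b-5p. These lay below the r of miR-148b-3p and miR-152-3p, and for 5 of the 6 above that of miR-148a-5p. For miR-217-5p, the most abundant of the 6, r was -0.50 within the 11 lower libraries. Against control 0 of 6 acinar arms were called in each treated group. Their median differences were 0.12 with caerulein 100 nM, 0.27 with caerulein 100 pM, -0.05 with TLC-S 250 uM and -0.48 with TLC-S 62.5 uM, where 6 of 6 were negative.

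Further marker lists were measured beside the family. Each is named for where its miRNAs are known, and acinar cells may hold them too. By mean share miR-375-3p ranked 2, miR-200a-3p 4 and miR-200b-3p 5 of all miRNAs in these libraries. The islet and neuroendocrine list of 5 miRNAs, mostly miR-375-3p, held 5.86% to 14.9% of counts, with the lowest value in control replicate 3. The 5 miRNAs of the epithelial miR-200 family held 6.23% to 12.0%, the 5 mesenchymal miRNAs 0.854% to 1.97% and the 2 endothelial arms of miR-126a 0.363% to 0.839%. The 4 leukocyte miRNAs held 0.0035% to 0.0111% and the 3 erythrocyte miRNAs 0.0066% to 0.0187% of counts, and each of the markers had counts in the table. The summed share of each list overlapped between each treated group and control, except for the erythrocyte list with caerulein 100 pM (0.0066% to 0.0092%, against 0.0096% to 0.0141% in control). As summed TMM-scaled CPM that list overlapped (85.6 to 116, against 104 to 131 in control). With caerulein 100 pM against control 10.3% of the single miRNAs did not overlap on that scale, and for shares the percentage was not computed. The endothelial list as summed TMM-scaled CPM did not overlap control (6721 to 8514) with caerulein 100 nM (3401 to 6247) or TLC-S 62.5 uM (4182 to 6674). Of single miRNAs, 6.55% and 12.3% did not overlap in these 2 comparisons. On the TMM scale 0 members of any of these lists were called in the 6 comparisons. Against control both endothelial arms were negative in every treated group, with medians of -0.81 with caerulein 100 nM, -0.33 with caerulein 100 pM, -0.28 with TLC-S 250 uM and -0.50 with TLC-S 62.5 uM. The 3 leukocyte miRNAs tested were all negative with caerulein 100 nM (median -0.44), and the 5 mesenchymal miRNAs all positive with TLC-S 62.5 uM (median 0.13). The remaining medians of these further lists against control lay between -0.18 (the miR-200 family with TLC-S 250 uM) and 0.37 (leukocyte miRNAs with caerulein 100 pM). The part of other cell types in the differences of the family was not tested.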

How the data were processed

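Small RNA was sequenced from 15 pools of acinar RNA. Adapters and alignment involved cutadapt and Bowtie with GRCm38/mm10, per the submitters' processing notes; the sources used here name no versions and no counting tool. The authors deposited estimated counts per mature miRNA (whole numbers), estimated counts per precursor with fractions, and RPM. The mature estimated counts, as deposited, are the precursor values summed and rounded, within 0.5. The deposited RPM values match the precursor counts scaled to RPM within 0.0313.

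Columns were matched to samples by the code in each title, and replicates are numbered by the series of that code. Within groups no library repeated another: the pairs had a chi-square of 62.1 to 1842 per degree of freedom. All 15 libraries were fitted together in edgeR 4.0.16 (R 4.3.3) by the quasi-likelihood test, with TMM factors, filterByExpr (minimum count 10, minimum total 15) and Benjamini-Hochberg adjustment over 351 miRNAs. The fit was tested on simulated counts for each treated group against control, with 200 of 351 miRNAs changed 2-, 4- or 8-fold. It called 57.1% to 66.7% of the 2-fold changes and 97.3% to 100% of the 8-fold ones. Far more miRNAs were changed there than were called in these data, so these rates need not hold here. Ratios had 0.5 added to each count and were compared by exact permutation in Python 3.11.15 with scipy 1.17.1. Alternatives were other scalings, other filters, DESeq2 1.42.0, limma 3.58.1 on log2(RPM + 1), a replicate block, the compared groups alone, a pseudocount of 1 for ratios, and each library left out. Figures were drawn with matplotlib 3.10.9.

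The named miRNAs are the 4 members, the other arms of their hairpins and, for likeness, the 4 miRNAs with the highest r per member among tested miRNAs with a mean of at least 100 CPM. Members and lists were chosen with earlier results of these data known. Intervals of shares cover counting error only.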

Additional observations from a re-analysis of the deposited data

How the results depend on the processing

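No member was called under any alternative, in the 6 comparisons of groups or, where it was run, the F test over the 5 groups. Of the differences of members, 227 kept their direction and 13 changed sign under settings other than leaving out single libraries. These settings include the fit of the compared groups alone. With library totals the difference was -0.0599 for miR-152-3p with caerulein 100 pM against control, 0.0814 for miR-148a-3p and 0.0012 for miR-148b-3p with TLC-S 250 uM against control, and 0.23 for miR-148a-5p between the caerulein doses. With limma on RPM it was 0.0059 for miR-148a-5p with caerulein 100 nM, -0.0596 for miR-152-3p with caerulein 100 pM, 0.20 for miR-148a-3p and 0.0431 for miR-148b-3p with TLC-S 250 uM, 0.0299 for miR-148b-3p with TLC-S 62.5 uM, each against control, and 0.23 for miR-148a-5p between the caerulein doses. With upper quartile scaling it was 0.0435 for miR-148a-5p with caerulein 100 pM against control. Library totals moved the median of all miRNAs by 0.29 between the caerulein doses and by -0.24 with caerulein 100 pM against control; limma on RPM moved it by 0.30, -0.22 and, with TLC-S 62.5 uM against control, 0.13.

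Leaving out single libraries changed the sign of 27 differences of members, and the ranges below are for those that changed. For miR-148a-3p the range was -0.97 to 0.45 with caerulein 100 nM against control, -0.14 to 1.31 with caerulein 100 pM against control, -0.61 to 0.97 with TLC-S 250 uM against control, -0.10 to 0.65 with TLC-S 250 uM against TLC-S 62.5 uM and -0.84 to 0.60 with TLC-S 62.5 uM against control. For miR-148a-5p the range was -0.22 to 0.16 with caerulein 100 nM against caerulein 100 pM, -0.29 to 0.20 with caerulein 100 nM against control and -0.25 to 0.26 with caerulein 100 pM against control. For miR-148b-3p the range was -0.83 to 0.21 with caerulein 100 nM against control, -0.21 to 0.86 with caerulein 100 pM against control, -0.51 to 0.58 with TLC-S 250 uM against control, -0.23 to 0.37 with TLC-S 250 uM against TLC-S 62.5 uM and -0.60 to 0.47 with TLC-S 62.5 uM against control. For miR-152-3p the range was -0.26 to 0.0827 with TLC-S 250 uM against control. Of the differences in mean log2 ratio, treated minus control, 18 changed sign when a library was left out. The difference for miR-148a-3p over miR-148a-5p ran from -0.79 to 0.51 with caerulein 100 nM, -0.0743 to 1.23 with caerulein 100 pM, -0.17 to 1.13 with TLC-S 250 uM and -0.23 to 1.07 with TLC-S 62.5 uM. The difference for miR-148b-3p over miR-148a-3p ran from -0.24 to 0.13 with caerulein 100 nM, -0.34 to 0.0320 with TLC-S 250 uM and -0.14 to 0.23 with TLC-S 62.5 uM. The difference for miR-152-3p over miR-148a-3p ran from -0.44 to 0.48 with caerulein 100 nM, -0.80 to 0.12 with TLC-S 250 uM and -0.26 to 0.66 with TLC-S 62.5 uM. The difference for miR-152-3p over miR-148b-3p ran from -0.20 to 0.43 with caerulein 100 nM, -0.52 to 0.11 with caerulein 100 pM, -0.47 to 0.16 with TLC-S 250 uM and -0.12 to 0.51 with TLC-S 62.5 uM.

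Same-numbered libraries deviated together in 8 of 18 pairs (correlation over 0.1, range -0.125 to 0.398), and in 10 of 18 the same number correlated best. The numbers were not taken as pairs in the main fit, though these values do not show the series to be unrelated. The replicate block was run as an alternative for the differences only, and the permutation tests of ratios had no such alternative. With the replicate block the difference of miR-148a-3p with TLC-S 250 uM against control was 0.00015 and that of miR-148b-3p between the TLC-S doses was -0.0048. The block gave 5 calls in place of 2 over all miRNAs with TLC-S 62.5 uM against control and 6 in place of 3 in the F test, none of them a member. DESeq2 gave 4 and 7 calls there. The block changed no call of a member. Depth as a limit on the comparisons was not tested; of the other arms, miR-148b-5p had as few as 5 counts in a library.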
